A study of Mus musculus with 6 samples.

Results

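The 10 genes described here encode the abundant heat shock proteins of the cytosol (*Hsp90aa1*, *Hsp90ab1*, *Hspa1a*, *Hspa1b*, *Hspa8*, *Hsph1* and *Dnajb1*) and of the mitochondrial matrix (*Hspd1*, *Hspe1* and *Hspa9*). They were chosen by name, out of 54115 genes with a quantified transcript, and all 10 passed the filter on low counts that left 12524 genes to test. Their mRNA was measured by RNA-seq in the liver of 3 wild-type (WT) mice and 3 mice lacking *Sirt7* (*Sirt7* KO), a nuclear lysine deacylase. All 6 mice were males aged 24 months that had been fasted for 16 h. The KO line had been backcrossed to C57BL/6J, and both genotypes came from crosses of heterozygous parents. For each mouse 1 ng of total RNA was copied into cDNA with the SMART-seq HT kit, which makes full-length cDNA from very small samples, and the libraries were made with Nextera XT. The comparison asked which genes differ in expression between the livers of aged *Sirt7* KO and WT mice.

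Heat shock proteins are chaperones that bind unfolded stretches of other proteins and use ATP to help them fold. In the cytosol, HSP70 proteins take up nascent and misfolded chains, J-domain proteins such as DNAJB1 deliver the chains and trigger ATP hydrolysis, HSP110 proteins such as HSPH1 release the ADP, and HSP90 finishes the folding of kinases and steroid receptors. In mitochondria, HSPA9 pulls imported chains through the inner membrane, and HSPD1 (HSP60) closes them in a folding chamber whose lid is HSPE1 (HSP10). The transcription factor HSF1 drives the inducible members by binding heat shock elements, which are inverted repeats of the unit GAA. In the liver the cytosolic members are known to follow body temperature and feeding over the day.

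RefSeq promoter windows on GRCm38.p6, from 250 bases before to 50 bases after an annotated start, were given for 6 of the 10 members in 9 windows. They were given for *Hspa1a*, *Hspa1b*, *Hsph1*, *Dnajb1*, *Hspd1* and *Hspe1*. *Hsp90aa1*, *Hsp90ab1*, *Hspa8* and *Hspa9* were not matched. The windows were searched for a pair of heat shock units, GAANNTTC or TTCNNGAA, which reads the same on both strands. Overlapping matches were counted. Such a pair was found in 15.06% of all 32851 windows, and 3 units in a row in 0.6027%. At least 2 matches were found in 1.96%. The windows below are shown because they hold the heat shock units found among the members. Capitals mark the matched units.
Hspe1, plus strand, chr1:55087898-55088197: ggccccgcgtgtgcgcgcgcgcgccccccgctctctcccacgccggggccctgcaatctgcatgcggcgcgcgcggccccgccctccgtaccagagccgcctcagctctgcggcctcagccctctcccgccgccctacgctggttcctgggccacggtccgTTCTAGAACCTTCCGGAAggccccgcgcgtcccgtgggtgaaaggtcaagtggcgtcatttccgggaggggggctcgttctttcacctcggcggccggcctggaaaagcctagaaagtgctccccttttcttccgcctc
Hsph1, minus strand, chr5:149636266-149636565: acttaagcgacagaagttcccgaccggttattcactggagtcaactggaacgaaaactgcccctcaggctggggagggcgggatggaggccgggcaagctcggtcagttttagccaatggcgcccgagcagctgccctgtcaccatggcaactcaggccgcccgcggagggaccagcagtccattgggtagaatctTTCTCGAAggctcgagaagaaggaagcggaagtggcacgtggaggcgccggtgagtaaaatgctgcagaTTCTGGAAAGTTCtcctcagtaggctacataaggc
Hspa1a, minus strand, chr17:34972107-34972406: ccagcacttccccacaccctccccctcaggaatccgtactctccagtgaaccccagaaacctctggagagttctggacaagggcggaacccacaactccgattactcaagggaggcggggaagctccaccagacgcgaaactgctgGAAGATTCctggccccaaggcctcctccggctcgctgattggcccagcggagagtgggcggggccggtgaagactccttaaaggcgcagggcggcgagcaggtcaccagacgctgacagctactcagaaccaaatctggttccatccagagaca
The *Hspe1* window held 3 overlapping matches whose first bases lie 89, 84 and 79 bases before the start, in 2 runs of 3 units. *Hspd1* is read in the opposite direction from the same stretch. Of its 2 windows, the one that shares 285 bases with that of *Hspe1* held those 3 matches, and the other held 0. The *Hsph1* window shown held 1 match 54 bases before the start and 2 overlapping matches 16 and 21 bases after it. The other *Hsph1* window held the same matches, 33 bases before and 37 and 42 bases after its own start. The windows of *Hspa1a* and *Hspa1b* each held 1 match, 104 bases before the start. They were equal in 296 of 300 bases and differed by C44T, T47C, T249G and C276T, counted from 1 at the 5′ end of the window, with the base of *Hspa1a* first. Both *Dnajb1* windows held 0 matches. A match is a run of letters and was not tested for binding.

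Between 10608035 and 13424776 reads per WT mouse and between 9994860 and 11107388 per *Sirt7* KO mouse were assigned to transcripts. The targeted gene was checked first. *Sirt7* read 55.2, 45.5 and 47.3 CPM (counts scaled to library size) in the WT mice and 28.6, 41.7 and 40.8 CPM in the KO mice, so every KO mouse was below every WT mouse. Its full-length isoform of 10 exons, *Sirt7-201*, held 429, 381 and 408 reads in WT and 124, 135 and 77.5 reads in KO mice. In TPM the order was opposite, with 34.4, 28.3 and 27.3 TPM in WT and 34.7, 49.9 and 68.0 TPM in KO mice. Shorter isoforms held more reads in KO mice, with 2.12, 5.12 and 0 reads of *Sirt7-202* (427 bases) in WT against 50.5, 54.1 and 93.3 in KO, and 43.0, 0 and 65.3 reads of *Sirt7-207* (1218 bases) in WT against 83.5, 119 and 192 in KO. The tissue label was checked with 14 hepatocyte markers, all of which were detected, with a summed 89271 to 92240 CPM in WT and 89357 to 106611 CPM in KO mice. In these bulk samples, fewer cells of a type and less RNA per cell cannot be told apart.

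Among the members, *Hspa8* and *Hsph1* had the largest genotype differences, and both were lower in *Sirt7* KO liver, by 1.90-fold and 1.69-fold as estimated by edgeR. No member was called by edgeR's quasi-likelihood test, where a call needed an adjusted p under 0.05 over all tested genes and a fold change over 1.5, and 0.00798% of all tested genes were called (1 gene, *Apol9b*). At an unadjusted p under 0.05, 2 of the 10 members were lower and 0 higher in KO liver, against 4.78% of all tested genes that were lower. In these same 2 members all KO mice lay below all WT mice in CPM, against 8.09% of all tested genes. Log2 fold changes (KO over WT) were below 0 in 7 of 10 members, against 50.7% of all tested genes, and in 9 of 10 against 63.4% when libraries were scaled by total counts only. The median log2 fold change was -0.39 over the 7 cytosolic members and 0.00 over the 3 mitochondrial members, with -0.01 over all tested genes. DESeq2, used as an alternative, called 1 member, *Hspa8*. It called 0.532% of its tested genes as lower with average transcript length offsets and 0.595% without them.

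**Figure D1:**
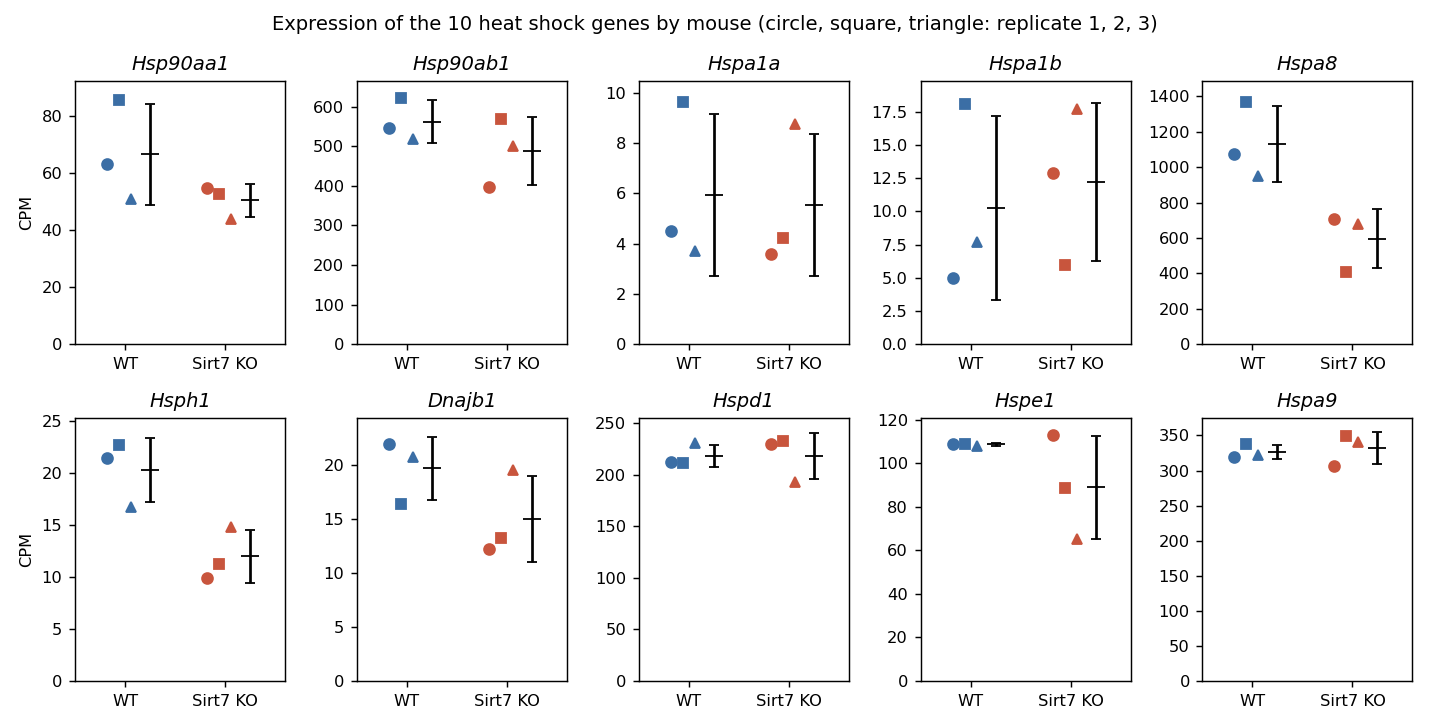
CPM of each of the 10 members (vertical axes from 0, one scale per gene) in 3 WT (blue) and 3 *Sirt7* KO (red) mice, with the mean and SD in black. In *Hspa8* the KO mice lie between 405 and 705 CPM, below the lowest WT mouse at 953 CPM, whereas the genotypes overlap in *Hspa9*.

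Levels of different genes were compared per length, as TPM (abundance scaled to transcript length and to a fixed total per mouse) averaged over the 6 mice. *Hspa8*, the constitutive HSP70 of the cytosol, had the highest mean level at 400 TPM (range 177 to 613 TPM over the mice). It was followed by the constitutive HSP90, *Hsp90ab1*, at 222 TPM (163 to 265 TPM). The mitochondrial members came next, with *Hspe1* at 155 TPM (104 to 186 TPM), *Hspa9* at 98.0 TPM (85.1 to 104 TPM) and *Hspd1* at 84.6 TPM (75.6 to 90.1 TPM). The more inducible cytosolic genes were lower. *Hsp90aa1* had 30.9 TPM (19.3 to 50.8 TPM), *Hsph1* 8.01 TPM (4.13 to 16.1 TPM) and *Dnajb1* 5.27 TPM (3.46 to 7.20 TPM). The strongly heat-inducible HSP70 genes were lowest, with *Hspa1b* at 3.58 TPM (1.75 to 5.79 TPM) and *Hspa1a* at 1.74 TPM (1.01 to 2.81 TPM). Of the 9 neighbouring pairs in this order, 2 had ranges that did not overlap, *Hspd1* over *Hsp90aa1* and *Hsp90aa1* over *Hsph1*. Within a mouse 5 pairs kept their order in all 6 mice. *Hspa8* exceeded *Hsp90ab1* in TPM in 5 mice, and the exception was KO mouse 2.

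HSPA8, also called HSC70, folds new proteins, removes clathrin coats and carries proteins to the lysosome in chaperone-mediated autophagy. *Hspa8* (ENSMUSG00000015656.17, chromosome 9, 40800984 to 40810087, plus strand) had 1074, 1367 and 953 CPM in the WT mice and 705, 405 and 678 CPM in the *Sirt7* KO mice. WT mouse 2 was highest and KO mouse 2 lowest, and the genotypes did not overlap in CPM or in TPM. The means were 1131 ± 213 CPM in WT and 596 ± 166 CPM in KO mice (SD, n = 3). The log2 fold change was -0.92 (standard error 0.24, 95% interval -1.47 to -0.38), with an adjusted p of 0.20 from edgeR. The exact two-sided permutation test of log2(CPM + 0.5) gave p = 0.1, the smallest p that 3 mice against 3 can give. DESeq2 called *Hspa8* with an adjusted p of 0.038 with length offsets and of 0.0043 without them, and edgeR with no filter on low counts called it with 0.00065. Leaving out each mouse in turn moved the log2 fold change between -1.06 and -0.71 (adjusted p of 0.080 to 0.51 from edgeR). Isoforms of *Hspa8* that encode protein held 97.7% to 99.8% of its reads, and the genotypes overlapped in this share.

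Of the 31-base words in *Hspa8* transcripts, 43.8% also occur in 1 or more of 19 other genes, 14 of them pseudogenes. These pseudogenes together held 0.046% to 0.121% as many reads as *Hspa8* itself in a mouse. Of the reads of the 7 cytosolic members, *Hspa8* made up 61.9%, 63.8% and 60.7% in WT and 59.0%, 38.2% and 52.8% in KO mice. The summed cytosolic expression was 1737, 2142 and 1571 CPM in WT and 1194, 1061 and 1283 CPM in KO mice, without overlap. Without *Hspa8* the sum was 662, 774 and 618 CPM in WT and 490, 655 and 605 CPM in KO mice, where the genotypes overlapped.

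HSPH1 is a large HSP70 relative that acts as nucleotide exchange factor for HSPA8. *Hsph1* (ENSMUSG00000029657.15, chromosome 5, 149614287 to 149636376, minus strand) had 21.5, 22.7 and 16.8 CPM in the WT mice and 9.89, 11.2 and 14.8 CPM in the KO mice. All KO mice were below all WT mice, with KO mouse 3 closest to WT mouse 3. The log2 fold change was -0.76 (standard error 0.21, 95% interval -1.24 to -0.28), with an adjusted p of 0.22 from edgeR and p = 0.1 from the exact permutation test. In TPM the genotypes overlapped, with 16.1, 9.90 and 4.13 TPM in WT and 4.35, 7.92 and 5.66 TPM in KO mice. The TPM values gave more weight to short isoforms. In WT mouse 1, 2 reads on *Hsph1-207* (254 bases) made up 7.19 of the 16.1 TPM. In KO mouse 2, 5.66 estimated reads on *Hsph1-203* (416 bases) made up 2.98 of the 7.92 TPM. The retained-intron isoform *Hsph1-208* of 751 bases held 9.82%, 12.8% and 0% of the *Hsph1* reads in WT and 15.6%, 14.1% and 9.38% in KO mice. edgeR called *Hsph1* with no filter on low counts (adjusted p of 0.045), and gave an adjusted p of 0.64 with length offsets. *Hsph1* shared 0 words of 31 bases with other genes.

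DNAJB1 (HSP40) is the J-domain partner that hands substrates to HSP70. *Dnajb1* (ENSMUSG00000005483.10, chromosome 8, 83608193 to 83612653, plus strand) had 22.0, 16.4 and 20.8 CPM in the WT mice and 12.3, 13.2 and 19.6 CPM in the KO mice. KO mice 1 and 2 were below every WT mouse and KO mouse 3 was inside the WT range. This gave a log2 fold change of -0.39 (standard error 0.22, 95% interval -0.89 to 0.10) and an adjusted p from edgeR of 0.55.

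The HSP90 pair consists of the inducible *Hsp90aa1* (ENSMUSG00000021270.13, chromosome 12, 110690605 to 110702728, minus strand) and the constitutive *Hsp90ab1* (ENSMUSG00000023944.14, chromosome 17, 45567775 to 45573271, minus strand). *Hsp90aa1* had 63.2, 85.6 and 50.7 CPM in the WT mice and 54.9, 52.6 and 43.9 CPM in the KO mice. The genotypes overlapped in CPM, since WT mouse 3 was below KO mice 1 and 2. The log2 fold change was -0.40 (standard error 0.20, 95% interval -0.86 to 0.06) and the adjusted p from edgeR was 0.51. In TPM all KO mice were below all WT mice, with 39.0, 50.8 and 27.5 TPM in WT and 21.4, 27.4 and 19.3 TPM in KO mice, although WT mouse 3 and KO mouse 2 were nearly level. With length offsets the edgeR log2 fold change was -0.73 (adjusted p of 0.37). In a separate edgeR fit without length offsets and without WT mouse 2 it was -0.17 (adjusted p of 0.82).

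The isoforms of *Hsp90aa1* differed between the scales. *Hsp90aa1-208*, a 4-exon transcript of 711 bases annotated as protein coding, held 63.2, 82.8 and 41.6 estimated reads in the WT mice and was listed at 0 in all 3 KO mice. It took 8.48%, 8.77% and 6.06% of the gene's reads in WT, and 10.43, 12.95 and 5.515 of its TPM. Without this isoform WT mouse 3 would be below KO mouse 2 in TPM, so the separation in TPM depends on it. The full-length *Hsp90aa1-201*, with 11 exons and 2852 bases, held 43.6%, 47.5% and 49.4% of the reads in WT and 66.6%, 56.1% and 55.5% in KO mice (exact permutation test, p = 0.1, the smallest possible). Its reads, 325, 448 and 339 in WT and 399, 278 and 253 in KO mice, overlapped between the genotypes. The share of reads on all coding isoforms was 82.8% ± 2.27 in WT and 83.7% ± 6.41 in KO mice (SD, n = 3). In TPM the coding share was 63.5% ± 3.01 in WT and 56.5% ± 10.6 in KO mice, and the genotypes overlapped. The retained-intron isoform *Hsp90aa1-206* of 924 bases held 13.0, 20.0 and 10.1 TPM in WT and 6.78, 15.1 and 7.89 TPM in KO mice. Salmon divides reads among isoforms, so a short isoform listed at 0 is an estimate. *Hsp90aa1-201* and *Hsp90aa1-208* were not named in advance among the gene's 8 isoforms, and the p was not adjusted over isoforms. Shares are parts of the same total, so where *Hsp90aa1-208* takes less the others take more. Of the 31-base words of *Hsp90aa1*, 51.5% also occur in other genes, and the pseudogene with most of them, *Gm12346*, held 0 to 10.3 reads in a mouse.

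**Figure D2:**
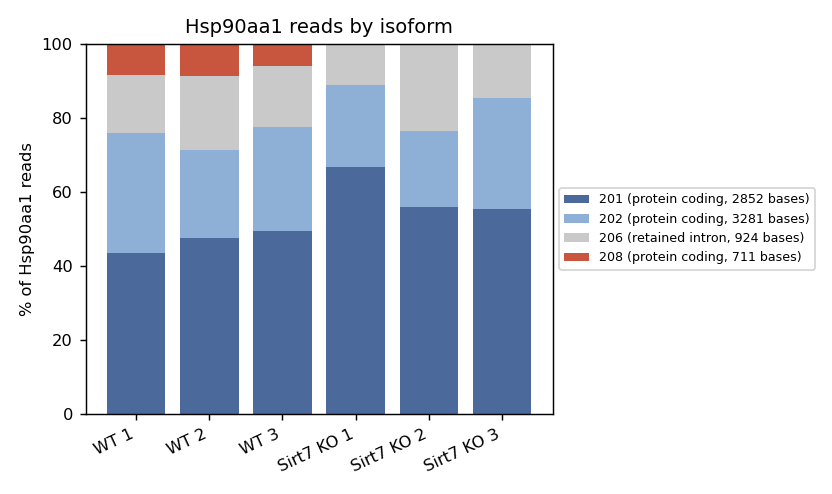
Percent of *Hsp90aa1* reads on each isoform (vertical axis) in 3 WT and 3 *Sirt7* KO mice, for the isoforms with over 1% in a mouse. Isoform 208 (red) takes 6.06% to 8.77% in WT mice and is listed at 0 in KO mice, and isoform 201 (dark blue) takes 43.6% to 49.4% in WT and 55.5% to 66.6% in KO mice.

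*Hsp90ab1* had 546, 622 and 518 CPM in the WT mice and 396, 568 and 500 CPM in the KO mice. KO mouse 1 was lowest and KO mouse 2 was inside the WT range. Its log2 fold change was -0.20 (standard error 0.17, 95% interval -0.60 to 0.19), with an adjusted p from edgeR of 0.71. The log2 ratio of *Hsp90aa1* to *Hsp90ab1* reads was -3.11 ± 0.25 in WT and -3.27 ± 0.36 in KO mice (SD, n = 3) and overlapped between genotypes (exact permutation test, p = 0.6).

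*Hspa1a* (ENSMUSG00000091971.3, chromosome 17, 34969190 to 34972156, minus strand) and *Hspa1b* (ENSMUSG00000090877.3, chromosome 17, 34956436 to 34959238, minus strand) are neighbouring copies of the heat-inducible HSP70. They share 70.1% and 68.1% of their 31-base words with other genes, above all with each other, so the division of reads between them is uncertain. *Hspa1a* had 4.49, 9.62 and 3.70 CPM in the WT mice and 3.57, 4.24 and 8.77 CPM in the KO mice. *Hspa1b* had 4.996, 18.1 and 7.69 CPM in WT and 12.9, 5.93 and 17.7 CPM in KO mice. One mouse of each genotype, WT mouse 2 and KO mouse 3, stood above the others in both genes, and the genotypes overlapped. With the reads of both genes added, the mice had 9.48, 27.7 and 11.4 CPM in WT and 16.5, 10.2 and 26.5 CPM in KO. The log2 fold change of the sum was 0.14 (standard error 0.44, 95% interval -0.87 to 1.14, adjusted p of 0.94 from edgeR).

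Inducible and constitutive cytosolic HSP70 were then set against each other. The log2 ratio of *Hspa1a* plus *Hspa1b* reads to *Hspa8* reads took the values -6.82, -5.63 and -6.39 in WT and -5.42, -5.31 and -4.68 in KO mice. Every KO mouse was above every WT mouse. The mean difference was 1.14, a 2.21-fold higher ratio in KO liver (exact permutation test, p = 0.1, adjusted p = 0.17 over the 5 ratios compared). The log2 fold change was 0.14 for *Hspa1a* plus *Hspa1b*, which overlapped between genotypes, and -0.92 for *Hspa8*. The ratio thus mostly restates the lower *Hspa8*. Ratios within a mouse do not depend on the scaling of the libraries.

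HSPD1 and HSPE1 form the mitochondrial chaperonin, and their genes are read head to head from the stretch shown above. *Hspd1* (ENSMUSG00000025980.14, chromosome 1, 55077835 to 55088243, minus strand) had 213, 211 and 230 CPM in the WT mice and 230, 233 and 193 CPM in the KO mice. The genotypes overlapped, with a log2 fold change of 0.00 (standard error 0.14, 95% interval -0.32 to 0.32, adjusted p of 0.998 from edgeR). *Hspe1* (ENSMUSG00000073676.4, chromosome 1, 55088132 to 55091307, plus strand) had 109, 109 and 108 CPM in WT and 113, 88.8 and 65.3 CPM in KO mice. The WT mice were nearly level while the KO mice ranged from above WT to well below it. The log2 fold change of *Hspe1* was -0.29 (standard error 0.20, 95% interval -0.73 to 0.15, adjusted p of 0.63 from edgeR). The log2 ratio of *Hspd1* to *Hspe1* reads was 0.96, 0.95 and 1.09 in WT and 1.03, 1.39 and 1.56 in KO mice, and these overlapped (exact permutation test, p = 0.2). The annotated genes overlap by 112 bases on opposite strands, and without strand information reads from these bases cannot be told apart. Other genes hold 53.1% of the 31-base words of *Hspd1* and 30.5% of those of *Hspe1*, and the pseudogenes among them held at most 0.152% and 0.122% as many reads. Pseudogenes that share any word with *Hspa1b* held 6.81% to 62.7% as many reads as *Hspa1b*, where 1873 of its 1885 shared words occur in *Hspa1a*. Those that share any word with *Dnajb1*, where 14 of 3154 words are shared, held 23.5% to 36.0% as many reads as *Dnajb1*. Any shared word counts here, so these percentages do not measure misplaced reads.

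HSPA9 (mortalin) is the HSP70 of the mitochondrial matrix and the motor of protein import. *Hspa9* (ENSMUSG00000024359.10) had 319, 338 and 322 CPM in the WT mice and 306, 349 and 341 CPM in the KO mice. The WT range lay inside the KO range. Its log2 fold change was 0.03 (standard error 0.14, 95% interval -0.28 to 0.33, adjusted p of 0.96 from edgeR). Its coefficient of variation over all 6 mice was 4.90%, against 7.17% for *Hspd1*, 39.3% for *Hspa8* and 52.1% for *Hspa1b*. The summed expression of the 3 mitochondrial members was 641, 658 and 660 CPM in WT and 648, 671 and 599 CPM in KO mice, which overlapped.

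**Figure D3:**
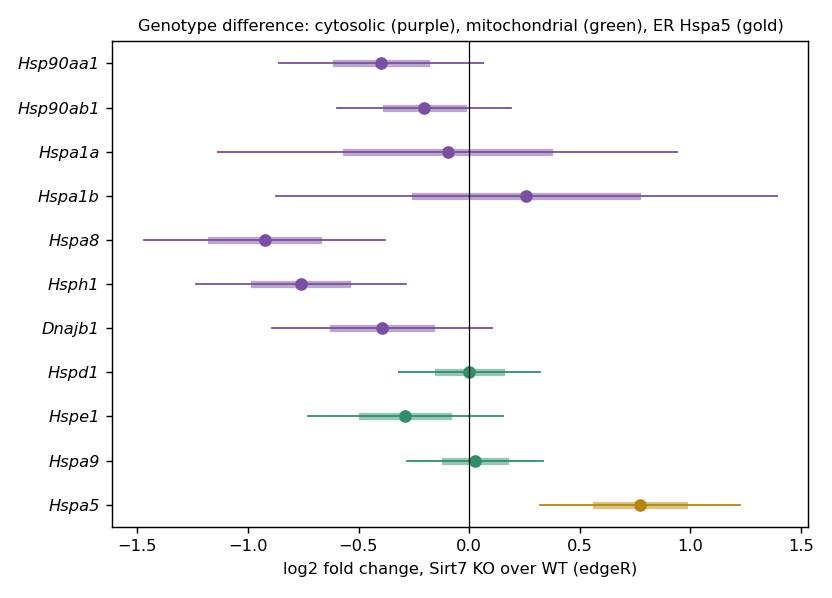
Log2 fold change, *Sirt7* KO over WT (horizontal axis), of each member and of *Hspa5* (dots), with the standard error (thick bars) and the 95% interval (thin bars) from edgeR. The intervals of *Hspa8* (-1.47 to -0.38) and *Hsph1* (-1.24 to -0.28) lie below 0, that of *Hspa5* (0.32 to 1.22) above 0, and those of the other 8 members include 0, before adjustment for the number of genes.

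The HSP70 of the endoplasmic reticulum (ER), *Hspa5*, had 490, 426 and 350 CPM in the WT mice and 895, 632 and 636 CPM in the KO mice. All KO mice were above all WT mice, opposite to *Hspa8* (log2 fold change 0.77, standard error 0.20, adjusted p of 0.20 from edgeR). The log2 ratio of *Hspa8* to *Hspa5* reads was 1.13, 1.68 and 1.44 in WT and -0.34, -0.64 and 0.09 in KO mice. *Hspa8* reads thus exceeded *Hspa5* reads in every WT mouse and in KO mouse 3. The mean ratio was 0.304-fold that of WT. The log2 ratio of *Hspa9* to *Hspa5* reads was -0.62, -0.34 and -0.12 in WT and -1.55, -0.86 and -0.90 in KO mice, 0.598-fold on average. Both ratios were separated between genotypes (exact permutation test, p = 0.1 each, adjusted p = 0.17 over the 5 ratios). *Hspa9* itself had a log2 fold change of 0.03, so its ratio mostly restates the higher *Hspa5*. Of 19 ER lumen chaperones tested, 14 were higher and 0 lower at an unadjusted p under 0.05, against 6.54% of all tested genes that were higher, and their median log2 fold change was 0.60. The 5 with the smallest p were *Calr* (0.89), *Pdia4* (0.77), *Ppib* (0.83), *Pdia3* (0.60) and *Hsp90b1* (0.60), given as log2 fold changes, and none was called (adjusted p of 0.12 to 0.17 from edgeR).

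**Figure D4:**
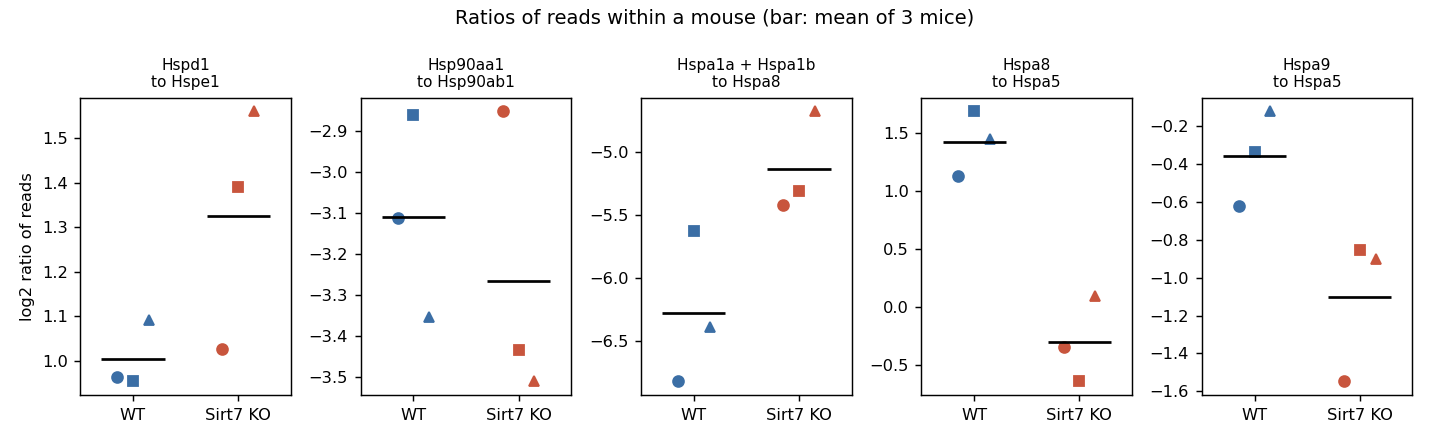
Log2 ratio of reads of the named genes within a mouse (vertical axes) in 3 WT (blue) and 3 *Sirt7* KO (red) mice, with bars at the mean. The ratio of *Hspa8* to *Hspa5* lies between 1.13 and 1.68 in WT and between -0.64 and 0.09 in KO mice, whereas the ratio of *Hsp90aa1* to *Hsp90ab1* overlaps.

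Co-chaperones work with HSP70 and HSP90 and set the fate of their clients. Of 38 cytosolic co-chaperones tested, 6 were lower and 2 higher in KO liver at an unadjusted p under 0.05. Over all tested genes these shares were 4.78% and 6.54%. Of the 38, 24 had a log2 fold change below 0, against 50.7% of all tested genes, and the median was -0.13. All KO mice lay below all WT mice in 9 of them, against 8.09% of all tested genes, and above in 2. None of the 38 was called. *Chordc1*, an HSP90 partner induced by HSF1, had 23.0, 19.7 and 23.8 CPM in WT and 15.02, 10.7 and 11.6 CPM in KO mice, without overlap (log2 fold change -0.83, standard error 0.19, adjusted p of 0.17 from edgeR). *Fkbp5*, an HSP90 immunophilin that restrains the glucocorticoid receptor and is itself induced by glucocorticoids, had 42.6, 42.9 and 74.4 CPM in WT and 20.2, 27.9 and 30.6 CPM in KO mice (log2 fold change -1.02, standard error 0.25, adjusted p of 0.19 from edgeR). All KO mice were below all WT mice in both genes. *Stub1* (-0.40), the ubiquitin ligase that marks HSP70 clients for degradation, and *Dnaja1* (-0.42), an HSP70 J-domain partner, were also separated between genotypes, while *Dnajc7* (0.52) and *Dnajb5* (0.99) were higher at an unadjusted p under 0.05, all given as log2 fold changes. The remaining lower genes were *Bag2* (-1.23) and *Dnaja2* (-0.38), named after their values were seen.

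*Hsf1*, which encodes the factor that induces many of these genes, had 17.1 ± 1.81 CPM in WT and 17.6 ± 2.73 CPM in KO mice (SD, n = 3, log2 fold change 0.04, standard error 0.18). Of the 9 heat shock factors and regulators tested, 0 were lower and 0 higher at an unadjusted p under 0.05, with a median log2 fold change of -0.06. Among 27 genes listed as HSF1 targets, members left out, 4 were lower and 1 higher at that threshold, with a median of -0.12. This list shares genes with those of the co-chaperones, the small heat shock proteins and TRiC, so their counts are not independent. Over all tested genes 4.78% were lower and 6.54% higher. The lower genes of the HSF1 target list were *Chordc1*, *Cacybp* (-0.50), *Hspb1* (-0.55) and *Dnaja1*. Of these, *Chordc1* and *Dnaja1* were also counted among the co-chaperones and *Hspb1* among the small heat shock proteins. The higher gene of the list was *Chac1* (1.62), which encodes a glutathione-degrading enzyme and is induced by ATF4. *Chac1* was low, with 1.69, 0.54 and 3.11 CPM in WT and 3.57, 5.30 and 7.80 CPM in KO mice. All 5 small heat shock proteins tested had log2 fold changes below 0 (median -0.16), and *Hspb1* alone had an unadjusted p under 0.05. *Hspb1*, an ATP-independent holdase, had 29.1, 29.6 and 23.6 CPM in WT and 16.6, 15.7 and 23.9 CPM in KO mice, and KO mouse 3 was inside the WT range. In the cytosolic chaperonin TRiC and its partner prefoldin, 0 of 15 genes passed in either direction (median -0.10).

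Among 25 mitochondrial chaperone partners and import genes, 1 was lower, *Grpel2* (log2 fold change -0.58), a nucleotide exchange factor of HSPA9, and 0 were higher, with a median of 0.01. At the same unadjusted p under 0.05, 4.78% of all tested genes were lower and 6.54% higher. *Grpel2* had 55.1, 61.1 and 64.0 CPM in WT and 51.0, 33.0 and 36.2 CPM in KO mice. Its paralog *Grpel1* had 199 ± 20.1 CPM in WT and 191 ± 2.30 CPM in KO mice, and the mitochondrial HSP90 *Trap1* had 164 ± 16.9 and 174 ± 20.2 CPM (SD, n = 3). Of 23 mitochondrial proteases and genes of the mitochondrial unfolded protein response, 2 were higher at an unadjusted p under 0.05 (median 0.03). *Clpx*, the unfoldase of the matrix protease ClpXP, had 152, 120 and 117 CPM in WT and 337, 276 and 246 CPM in KO mice. All KO mice were above all WT mice (log2 fold change 1.14, standard error 0.18, adjusted p of 0.073 from edgeR). *Lap3*, a leucine aminopeptidase, was the other higher gene, with a log2 fold change of 0.69.

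**Figure D5:**
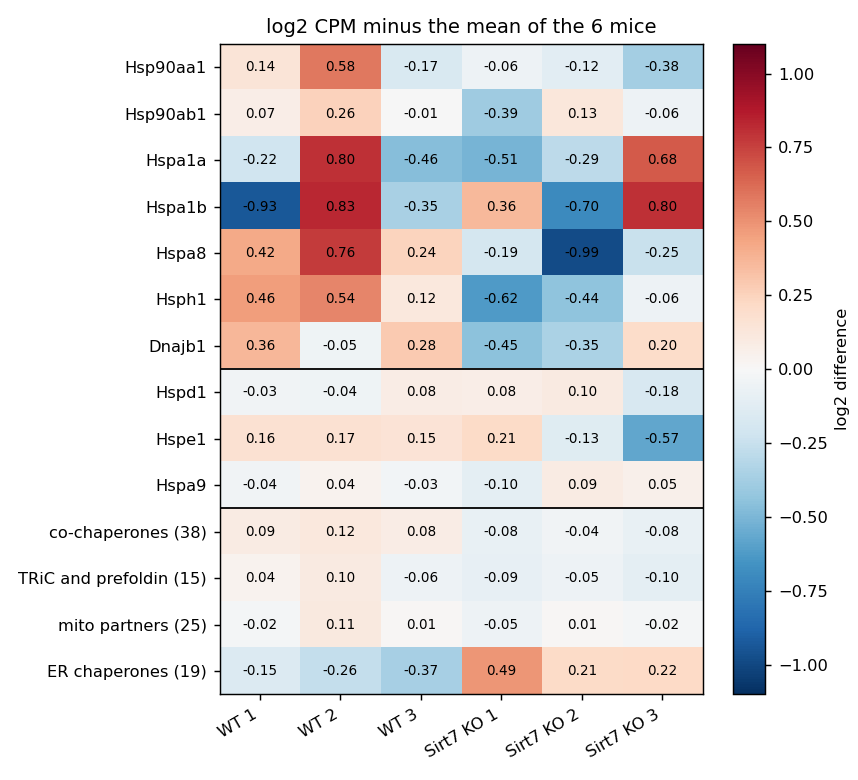
Log2 CPM of each member minus its mean over the 6 mice (columns), and the median of the same difference over 4 gene lists with the number of genes in parentheses. WT mouse 2 has the highest value in 6 members and KO mouse 1 the lowest in 5, and the mitochondrial rows *Hspd1* and *Hspa9* stay near 0.

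WT mouse 2 was highest in 6 of the 10 members and KO mouse 1 lowest in 5. The median difference of the 7 cytosolic members from their mean over all mice was 0.14, 0.58 and -0.01 (log2 CPM) in WT and -0.39, -0.35 and -0.06 in KO mice. KO mouse 3 was the KO mouse closest to WT. Genes were ranked by the root mean square difference of their profile over the 6 mice from this cytosolic median, among 2266 genes at least as variable. The closest were *Gm15542* (0.0769), *Nol8* (0.104), *Ripor1* (0.125), *Pcsk6* (0.133), *Rrp36* (0.136), *Plekhb1* (0.138), *Hspb1* (0.152) and *Dsp* (0.156), on the log2 scale, against a median of 0.578 over the genes compared. The points are 6 libraries shared by all genes, and the order is a description.

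Further lists were examined beside the members, and none of their genes was called by edgeR (adjusted p of 0.166 to 0.345 for those given with a fold change here). In the core clock and temperature-responsive list, 6 of 20 tested genes were lower and 1 higher at an unadjusted p under 0.05. Over all tested genes these shares were 4.78% and 6.54%. Those of the list past the threshold included *Tef* (log2 fold change -0.88), *Per3* (-1.47), *Ciart* (-2.08), *Per2* (-1.26) and *Arntl* (1.45). The temperature-responsive RNA binding genes of the list did not pass it in either direction. All 21 genes of the list summed to 589 to 835 CPM in WT and 464 to 602 CPM in KO mice. Of 16 tested immediate early and tissue handling genes, *Gadd45b* (-1.58) and *Jun* (-0.68) were lower and *Btg2* (0.89) was higher. All 22 genes of that list summed to 265 to 379 CPM in WT and 284 to 339 CPM in KO mice. The 7 tested neutrophil and red cell markers all had log2 fold changes above 0 (median 0.70), of which *Alas2* (1.26) passed an unadjusted p under 0.05. All 10 genes of that list summed to 377 to 551 CPM in WT and 447 to 918 CPM in KO mice, while the neutrophil genes *Ly6g* and *Mpo* were at or near 0. Markers of Kupffer cells (12 tested), sinusoidal endothelium (10), stellate cells (10), cholangiocytes (4), lymphocytes (3) and hepatocytes (14) had 0 genes past that threshold in either direction, and their summed levels overlapped between the genotypes. The part of these differences in the values of the members was not tested.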

How the data were processed

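RNA-seq of 6 livers was analyzed. Adaptors had been removed by the authors with Trim Galore (0.6.5), and transcript abundance on GRCm38 had been estimated with Salmon (1.2.1). For each mouse they deposited estimated counts of reads per transcript, which were not normalized, and TPM, which the authors' Salmon run scaled to length and library. Replicates were not pooled. The annotation release is not given in the sources used here.

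The estimated counts were summed per gene with GENCODE M21 and rounded. Of 140992 transcripts 1201 had no gene there, and they held 0.303% to 0.492% of the reads. Genes were tested with edgeR 4.0.16 (R 4.3.3, quasi-likelihood test, TMM, filterByExpr with a minimum count of 10, Benjamini-Hochberg adjustment over 12524 genes, biological coefficient of variation 26.4%). DESeq2 1.42.0 was the alternative. Both were tested on data simulated with edgeR's dispersion estimates, where both made more false calls than their threshold allows, DESeq2 more than edgeR. With a single draw per fold change, this cannot rank the tools or give their false call rate in these livers. CPM used TMM library sizes. Single values were compared by exact two-sided permutation, where 3 mice against 3 cannot go below p = 0.1. Promoters and shared words of 31 bases were searched with Python 3.11.15. Spearman correlations across genes were 0.950 to 0.973 within and 0.941 to 0.961 between genotypes. No 2 mice agreed within sampling noise (chi-square of at least 16.9 per gene).

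Groups came from the sample labels. The members, gene lists, tests and alternatives were chosen with earlier results of these data known. Text names all members, *Sirt7*, *Hspa5*, up to 5 genes per list with the smallest unadjusted p under 0.05, and the 8 genes whose profiles were closest to the cytosolic members, with a mean of at least 5 CPM. *Hsf1*, *Grpel1*, *Trap1*, *Apol9b* and the cell markers *Ly6g* and *Mpo* were added after their values were seen. The result of 1 listed gene is not reported here. Depth covers counting error only, since no molecular identifiers are named.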

Additional observations from a re-analysis of the deposited data

How the results depend on the processing

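The number of genes called (1) was 2 with total counts only, 2 with length offsets in edgeR, 633 with no filter on low counts, 258 with DESeq2 without length offsets and 242 with them. It was 0 to 252 when each mouse was left out, with 252 without *Sirt7* KO mouse 1. The number of members called (0) was 2 with no filter on low counts (*Hspa8* and *Hsph1*), 1 with DESeq2 with or without length offsets, and 2 with an unadjusted p under 0.05 and a fold change over 1.5. The cause of these differences was not tested. No mouse left out gave a called member. The same-numbered mice did not deviate together (correlations of -0.06 to 0.12), so the numbers were not treated as pairs. With the replicate block 41 genes and 0 members were called, and the log2 fold change of *Hspd1* was -0.0021.

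The direction was kept under all 14 alternatives in *Hspa8*, *Hsph1*, *Dnajb1*, *Hsp90aa1*, *Hsp90ab1* and *Hspe1*. *Hspd1* turned to -0.11 with total counts only and -0.00064 with a mean of at least 50 counts, and *Hspa9* to -0.084 with total counts only, a scaling that moved the median of all genes to -0.11. With each mouse left out, log2 fold changes ranged from -0.047 to 0.084 in *Hspd1*, -0.013 to 0.083 in *Hspa9*, -0.60 to 0.44 in *Hspa1a*, -0.11 to 0.94 in *Hspa1b* and -0.27 to 0.76 in their sum. In each case 2 members were separated between genotypes in CPM (*Hspa8*, *Hsph1*) and in TPM (*Hspa8*, *Hsp90aa1*). The order of levels changed for *Hsph1* and *Dnajb1* with CPM per kilobase. Depth limits *Hspa1a* and *Hspa1b*, with 39 to 199 reads per mouse.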
